A study of Danio rerio with 12 samples.

Results

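The hatching gland proteases described here are 3 genes, ctslb (ENSDARG00000074306), ctslb.4 (ENSDARG00000100833) and he1.3 (ENSDARG00000022670), found by their symbols as 3 of the 19983 rows of a table of reads per gene from whole zebrafish larvae. They were chosen by their measured values in these same 3 libraries, so their differences between libraries are given as a description with no test. All 3 were among the 16807 genes with at least 1 CPM (a count per 1e+06 scaled reads) in at least 1 library, he1.3 through its Dx-IONP level alone, ctslb through Dx-IONP and IC, and ctslb.4 in each library. All larvae carried the transgene Tg(fli:EGFP), whose fli promoter drives a green fluorescent protein in the vascular endothelium, and were taken 120 hours after fertilization. There were 3 conditions: larvae exposed to Dx-IONP, which are dextran-coated iron oxide nanoparticles, larvae labelled IC, and Control larvae. The labels do not spell out IC, and since the protocol names a control, an iron and a nanoparticle condition, IC is by elimination the iron one. Neither dose nor length of exposure is known from the labels. For each condition RNA from 20 pooled embryos went into 1 poly(A) library, which was sequenced on 4 lanes, so the lanes of a condition are repeat runs of 1 library and not replicates.

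The hatching gland is a transient organ of the fish embryo, made of large secretory cells that come to lie over the yolk sac and release proteases which soften and digest the egg envelope, the chorion, so that the embryo can hatch. The he1 genes code for hatching enzymes of the astacin family of zinc metalloproteases. The gene ctslb codes for a cathepsin L, a cysteine protease, and carries the older name hgg1 (hatching gland gene) because its transcript marks these cells from their early migration onwards. Zebrafish ordinarily hatch well before the sampled age, and the gland cells then disappear. The rows were compared between the 3 libraries as possible signs of remaining gland cells or of stage. In RNA from whole pooled larvae, more cells of a type and more RNA per cell cannot be told apart.

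The 3 libraries held 55381504 reads for Dx-IONP, 48283541 for IC and 84043873 for Control. Levels are CPM scaled by TMM, a method that sets library scales so that most genes do not differ, with factors of 0.857 for Dx-IONP, 1.05 for IC and 1.11 for Control. A gene was counted as higher or lower where its levels were at least 2-fold apart and the exact 95% counting interval of the ratio did not include equality. By this rule 45.1% of the 16807 genes differed between Dx-IONP and Control, with 20.9% higher in Dx-IONP. Between IC and Control 29.2% differed, with 14.2% higher in IC. Between Dx-IONP and IC 50.5% differed, with 24.0% higher in Dx-IONP. Of the 16807 genes, 4071 were lower in Dx-IONP than in Control and 2534 were lower in IC than in Control. In Dx-IONP 4451 were lower than in IC. A large difference was thus common in these libraries, and counts of members and of listed genes are read beside these values. Scaling to total reads moved the median log2 fold of all genes to -0.35 for Dx-IONP against Control and to -0.27 for Dx-IONP against IC, and of the genes counted 30.2% were then higher in Dx-IONP than in Control, against 46.3% with TMM. In the comparison of Dx-IONP with IC the share counted as higher was 35.1% with total reads and 47.6% with TMM. The intervals cover counting error only, because without molecular identifiers several reads can come from 1 molecule, and because 1 pool per condition gives no measure of how pools vary.

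The cathepsin ctslb had 483, 474, 418 and 474 reads in the 4 lanes of Dx-IONP. It had 19, 6, 0 and 40 reads in the lanes of IC, and 5, 6, 2 and 0 reads in those of Control. Every Dx-IONP lane was above every lane of the other libraries, whereas the lanes of IC and Control overlapped. After scaling the level was 38.9 CPM in Dx-IONP (counting interval 37.2 to 40.8), 1.28 CPM in IC (0.987 to 1.63) and 0.140 CPM in Control (0.0744 to 0.239). On the log2 scale with a prior count of 2, ctslb was higher in Dx-IONP than in Control by 7.86 (7.35 to 9.04). The ratio without a prior count was 278.8. Here and below, ratios and the intervals in brackets after log2 folds use no prior count. The gene ctslb was higher in Dx-IONP than in IC by 4.89 (4.57 to 5.31), a ratio of 30.5. In IC against Control the log2 fold was 2.96 (2.32 to 4.18), and lane 4 held 40 of the 65 IC reads. Without lane 4 of each library the log2 fold was 1.64 for IC against Control and 5.77 for Dx-IONP against IC.

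The gene ctslb.4, which RefSeq places near ctslb in a run of cathepsin L genes, had 951, 928, 1132 and 1024 reads in the lanes of Dx-IONP. It had 223, 166, 239 and 223 reads in the lanes of IC, and 32, 23, 32 and 41 in those of Control. The 3 libraries did not overlap in any lane. The level was 84.98 CPM in Dx-IONP (82.4 to 87.6), 16.7 CPM in IC (15.6 to 17.9) and 1.38 CPM in Control (1.15 to 1.64). Dx-IONP was above Control by a log2 fold of 5.92 (5.70 to 6.21), a ratio of 61.8. IC was above Control by 3.58 (3.34 to 3.88), a ratio of 12.2, and Dx-IONP was above IC by 2.34 (2.24 to 2.45), a ratio of 5.08. The step between IC and Control was thus seen in all lanes for ctslb.4, unlike for ctslb.

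The hatching enzyme gene he1.3, for which RefSeq also lists the names hce2 and he2, was read in the Dx-IONP library alone. Its lanes held 36, 27, 23 and 23 reads in Dx-IONP, and 0 reads in every lane of IC and of Control. The level in Dx-IONP was 2.30 CPM (counting interval 1.88 to 2.77), and the lanes ran between 1.91 and 3.03 CPM. Where a count was 0, a floor of 3 reads was used, or 0.0590 CPM in IC and 0.0322 CPM in Control. Set against these floors, he1.3 was 38.9-fold higher in Dx-IONP than in IC (log2 5.28) and 71.2-fold higher than in Control (log2 6.15). The exact counting intervals of its log2 folds begin lower, at 4.96 against IC and at 5.83 against Control, and have no upper end. Between IC and Control no fold can be given. Reading a gene in 1 library alone was rare but not particular to he1.3. Reads in Dx-IONP only were found for 29 of the 16807 genes, 25 of them with at least the 109 reads of he1.3. Another 3 had reads in IC only and 4 in Control only. The genes read in Dx-IONP only included ADIPOR1, with 1676 reads, and stom, with 1710. Conversely, HSPA9 had 0 reads in the Dx-IONP library, against 2501 for IC and 3191 for Control. Whether a count of 0 stands for absent transcript or for reads assigned to another row was not tested.

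**Figure D1:**
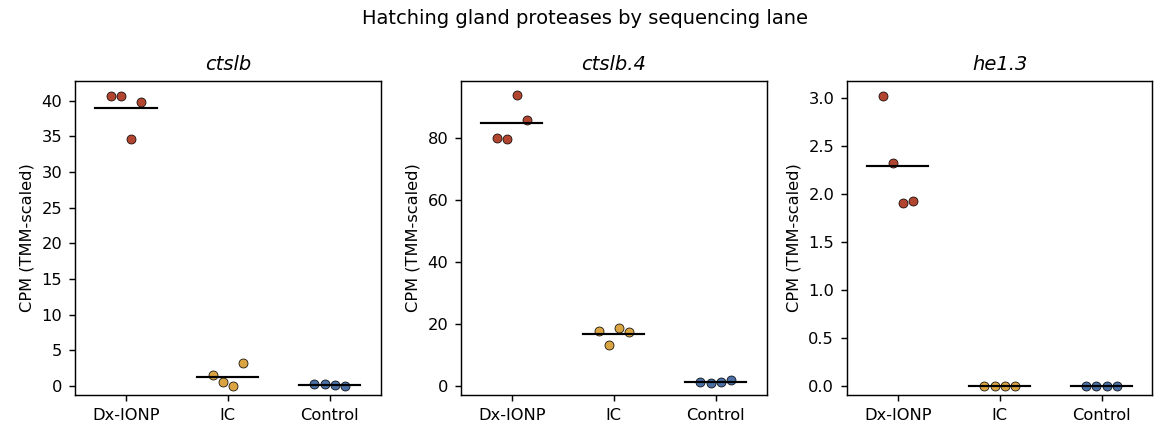
Level of each protease in CPM (TMM-scaled, linear axis with its own range per gene) in the 4 sequencing lanes of each library, with points for lanes and a line at the level of the lanes summed. The Dx-IONP lanes of ctslb sit between 34.7 and 40.7 CPM and those of ctslb.4 between 79.8 and 93.9 CPM, above all lanes of IC and Control, and he1.3 is at 0 in all IC and Control lanes.

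The order of levels was Dx-IONP, then IC, then Control for ctslb and ctslb.4, an order that 3108 of the 16807 genes shared (18.5%). For he1.3 the order was Dx-IONP above both other libraries, which could not be ordered. Set among all genes by log2 fold, ctslb ranked 104 from the highest in Dx-IONP against Control, he1.3 ranked 130 and ctslb.4 ranked 137. By the fold of IC against Control, ctslb.4 ranked 22 and ctslb ranked 53. In Dx-IONP against IC he1.3 ranked 139, ctslb ranked 168 and ctslb.4 ranked 851. Both ranks of he1.3 depend on the prior count, since the reference library had no reads of it. The comparisons share libraries, the Control library serving both exposures, so their values are set side by side and are not separate evidence for each other.

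**Figure D2:**
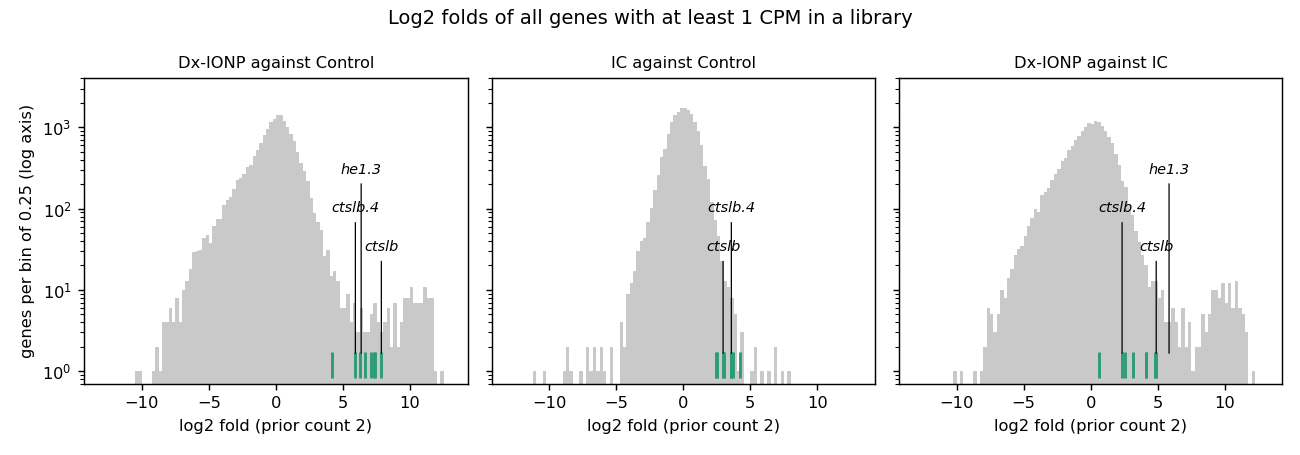
Number of genes (log axis) per log2 fold bin of 0.25 for the 3 comparisons over 16807 genes, with lines at ctslb, ctslb.4 and he1.3 and short green ticks for the 8 cathepsin L genes of the chromosome 12 block. The gene he1.3 is drawn at its fitted fold, which depends on the prior count, and ctslb and ctslb.4 lie in the thin upper tail of all genes in the panels against Control, at log2 7.86 and 5.92 for Dx-IONP and 2.96 and 3.58 for IC.

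The lanes of a library hold the same RNA, so they show how far a single row can vary with no change of sample. Their spread was measured as chi-square per degree of freedom of the reads around the lane totals, for which sampling noise alone gives a median of 0.789. Where lanes averaged 10 reads or more, the median gene had 0.981 in Dx-IONP, 0.933 in IC and 0.966 in the Control library, and the 95th percentile was 5.67 in Dx-IONP, 4.19 in IC and 4.86 in the Control library. For ctslb the value was 2.58 in Dx-IONP, 19.2 in IC and 2.40 in the Control library. For ctslb.4 it was 6.18 in Dx-IONP, 4.06 in IC and 1.57 in the Control library. The lanes of ctslb in IC, with between 0 and 40 reads, thus differed far more than reads drawn at random from 1 library would. Salmon, the counting tool named in the submitters' processing notes, divides reads that fit several similar transcripts by likelihood in each run, and how similar these copies are was not tested here. With the reads of ctslb and ctslb.4 added together the value was 1.51 in Dx-IONP, 6.01 in IC and 0.654 in the Control library. With the whole run of cathepsin L rows added together it was 2.35 in Dx-IONP, 1.80 in IC and 1.16 in the Control library.

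**Figure D3:**
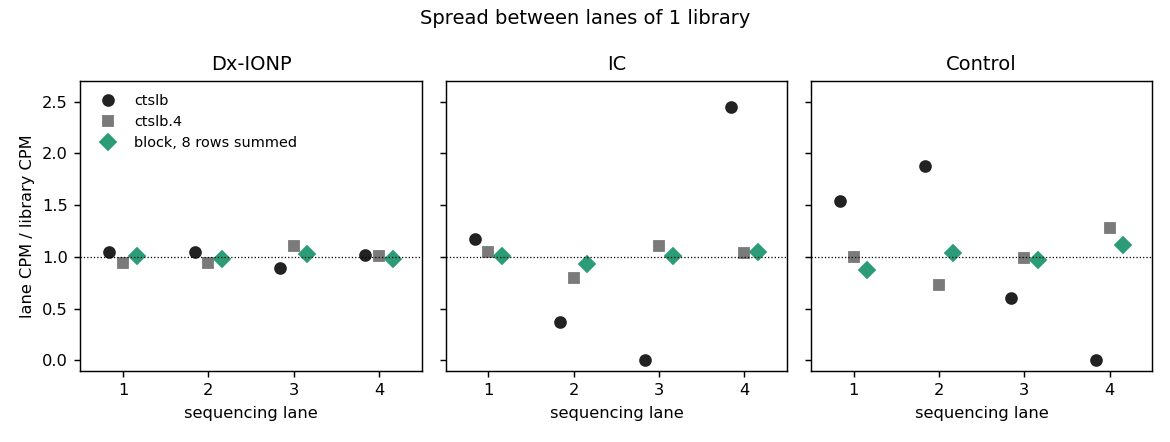
Level in each sequencing lane divided by the level of the whole library, for ctslb (circles), ctslb.4 (squares) and the sum of the 8 cathepsin L rows (diamonds), in Dx-IONP, IC and Control. The circles of IC spread from 0 in lane 3 to well above the others in lane 4, whereas the diamonds stay near the dotted line at 1, with IC lanes of 55.9 to 62.9 CPM around a library level of 59.9 CPM.

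In the RefSeq order of genes on chromosome 12 (assembly GRCz12tu, used for names and order only, since the counts were made on GRCz11), ctslb and ctslb.4 belong to a run of 17 protein-coding entries. In this run 8 carry a cathepsin L name or synonym (ctslb.4, si:dkey-239j18.2, ctslb, zgc:174154, si:dkey-269i1.4, si:dkey-26g8.5, zgc:174855 and zgc:174153), and all 8 had a row in the table. These rows were gathered after the values of ctslb and ctslb.4 were known. These 2 members are in the counts that follow because they were chosen for their values, so only the other rows bear on the run. Of those, si:dkey-239j18.2 passed the filter through its Dx-IONP level alone. All 8 were higher in Dx-IONP than in Control, beside 20.9% of all genes, with a median log2 fold of 6.89 and a range of 4.15 to 7.86, whereas the median of all genes was 0.03. All 8 were higher in IC than in Control, beside 14.2% of all genes, with a median of 3.26 and a range of 2.45 to 4.25. In Dx-IONP against IC 7 of 8 were higher, beside 24.0% of all genes, with a median of 3.64. The exception was zgc:174154, with a log2 fold of 0.63 (0.50 to 0.76). Rows of similar copies can share reads, so 8 rows are not 8 separate observations, and the counts were the same with total reads and with DESeq2 size factors.

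Single rows of the run varied in how far IC stood above Control. The row zgc:174855 had 147 CPM in Dx-IONP, 16.4 CPM in IC and 0.838 CPM in Control. The row si:dkey-26g8.5 had 75.5 CPM in Dx-IONP, 4.31 CPM in IC and 0.516 CPM in Control, and zgc:174153 had 49.5 CPM in Dx-IONP, 2.77 CPM in IC and 0.462 CPM in Control. Levels of si:dkey-269i1.4 were 42.7 CPM in Dx-IONP, 1.48 CPM in IC and 0.247 CPM in Control, close to those of ctslb in all 3 libraries. The row zgc:174154 had 25.1 CPM in Dx-IONP, 16.2 CPM in IC and 1.39 CPM in Control, so that both exposed pools were well above Control. The row si:dkey-239j18.2 was read least, with 4.68 CPM in Dx-IONP, 0.747 CPM in IC and 0.0322 CPM in Control, the last from 3 reads. The order Dx-IONP, IC, Control held in each of these rows.

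Added together, the 8 rows held 22238 reads in Dx-IONP, 3048 reads in IC and 465 reads in Control, which came to 468 CPM in Dx-IONP, 59.9 CPM in IC and 4.996 CPM in Control. The sum avoids any question of how reads were divided among these 8 rows, but not between them and other entries of the run. It leaves out si:dkey-239j18.3, an entry with no cathepsin L name. That row was read more in IC (3232 reads) than in Dx-IONP (1866 reads, log2 fold -0.69). Whether reads were shared with that row was not tested. The log2 fold of the sum of the 8 rows was 6.54 (6.42 to 6.69) in Dx-IONP against Control, a ratio of 93.7. It was 3.58 (3.44 to 3.73) in IC against Control and 2.97 (2.91 to 3.02) in Dx-IONP against IC. The share of the 8 rows' reads that fell to ctslb was 8.31% in Dx-IONP (exact binomial interval 7.95 to 8.69), 2.13% in IC (1.65 to 2.71) and 2.80% in the Control library (1.497 to 4.73). The share that fell to ctslb.4 was 18.1% in Dx-IONP (17.6 to 18.7), 27.9% in IC (26.3 to 29.6) and 27.5% in the Control library (23.5 to 31.8). The fold of ctslb in Dx-IONP against Control was therefore larger than that of the sum, and the fold of ctslb.4 smaller.

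**Figure D4:**
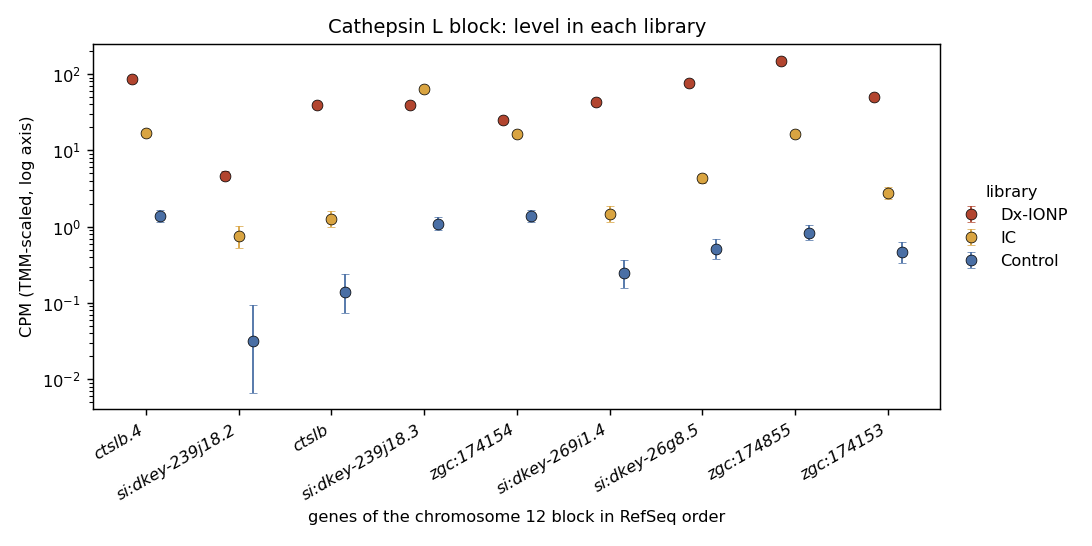
Level of each row of the chromosome 12 run in CPM (log axis), in RefSeq gene order, in Dx-IONP, IC and Control, with bars for exact counting intervals. In the 8 cathepsin L rows Dx-IONP is above IC and IC above Control, whereas si:dkey-239j18.3, which carries no cathepsin name here, is higher in IC (63.6 CPM) than in Dx-IONP (39.3 CPM).

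Of the other entries in the run, 2 had a row. The gene si:dkey-239j18.3, next to ctslb in RefSeq order, had 39.3 CPM in Dx-IONP, 63.6 CPM in IC and 1.096 CPM in Control. It was above Control by a log2 fold of 5.13 in Dx-IONP and of 5.82 in IC, and in Dx-IONP it was below IC (log2 fold -0.69). The gene si:dkey-26g8.4 had 0 reads in all 3 libraries. The gene htr7, a serotonin receptor gene that borders the run, had 0.168 CPM in Dx-IONP, 1.32 CPM in IC and 0.945 CPM in Control, so it did not share the order of its neighbours.

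Cathepsins are proteases, most of them lysosomal, and 18 of the 24 entries of a cathepsin list had a row, 17 of them past the filter. In Dx-IONP against Control 6 of 17 were higher, beside 20.9% of all genes, and 1 lower, with a median log2 fold of 0.67. Beside ctslb and ctslb.4 these were ctsll, a further cathepsin L, (1.95), CTSO (1.93), CTSH (1.6) and ctss2.1, a cathepsin S, (1.42), and the lower one was ctss1 (-2.11). In IC against Control 3 were higher (ctslb, ctslb.4 and CTSO, at 1.26), beside 14.2% of all genes. There 4 were lower, ctsll (-2.16), ctss2.1 (-1.72), CTSD (-1.19) and ctsl.1 (-1.14), and the median was -0.35. The cathepsin L genes outside the run thus had another pattern: ctsll had 11.7 CPM in Dx-IONP, 0.649 CPM in IC and 2.998 CPM in Control, and ctsl.1 had 5.50 CPM in Dx-IONP, 1.73 CPM in IC and 3.85 CPM in Control. In Dx-IONP against IC 8 of the 17 were higher, beside 24.0% of all genes, and 1, ctss1, was lower, with a median of 0.97. The members ctslb and ctslb.4 are in the counts of all 3 comparisons because they were chosen for their values. Only the other genes of the list therefore bear on cathepsins as a group. Of those others, CTSO alone was higher in IC than in Control.

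The astacins are the family of he1.3. For the hatching enzyme genes he1.1 and he1.2, its neighbours in RefSeq order on chromosome 22, no row was found under these names. Of the nearby genes, si:ch211-246m6.4 had 4.36 CPM in Dx-IONP, 1.44 CPM in IC and 1.06 CPM in Control, a log2 fold of 2.01 for Dx-IONP against Control and of 0.42 for IC against Control. The nearby genes aox5 and bzw1a each matched 2 rows and were left out, so this gene does not stand for the neighbourhood. Of 18 astacin entries 11 rows were found and 5 were past the filter. In Dx-IONP against Control 4 of these 5 were higher, beside 20.9% of all genes, and 1 was lower (median log2 fold 1.16). In IC against Control 1 was higher, beside 14.2% of all genes (median 0.19). In Dx-IONP against IC 3 were higher, beside 24.0% of all genes, and 1 was lower (median 1.16). The member he1.3 is among those higher in Dx-IONP because it was chosen for its values, and it passed the filter through Dx-IONP alone. Only the other genes therefore bear on the family. Of these, hce2l1 passed the filter through its IC level alone. The gene hce2l2, by its symbol like the high choriolytic enzyme hce2, had 18.1 CPM in Dx-IONP, 3.78 CPM in IC and 2.85 CPM in Control, a log2 fold of 2.66 for Dx-IONP against Control. Its namesake hce2l1 had another order, lowest in Dx-IONP and highest in IC, with 0 reads in Dx-IONP, 414 in IC (8.14 CPM) and 51 in Control (0.548 CPM). With a floor of 3 reads in place of 0, hce2l1 was 8.67-fold lower in Dx-IONP than in Control and 129-fold lower than in IC. The exact counting intervals of these log2 folds reach up to -2.77 against Control and -6.71 against IC. In IC hce2l1 was above Control by a log2 fold of 3.83. Of the proteases named for the egg envelope, he1.3 and hce2l1 were therefore each at 0 where the other was read. Whether these counts of 0 stand for absent transcript was not tested.

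The other astacins past the filter were npsn, a protease of neutrophils, and TLL1, a tolloid-like protease that processes matrix proteins and BMP inhibitors. The gene npsn had 49.9 CPM in Dx-IONP, 22.3 CPM in IC and 23.8 CPM in Control. TLL1 had 11.4 CPM in Dx-IONP, 5.78 CPM in IC and 5.06 CPM in Control. With total reads their log2 folds in Dx-IONP against Control were 0.70 for npsn and 0.80 for TLL1, under the 2-fold limit, and the count was then 2 higher and 1 lower. Below the filter, c6ast1 had 20 reads in Dx-IONP, 6 reads in IC and 29 reads in Control, or 0.421 CPM in Dx-IONP, 0.118 CPM in IC and 0.312 CPM in Control. The gene c6ast3 had 0.0421 CPM in Dx-IONP, 0.0787 CPM in IC and 0.0537 CPM in Control, and c6ast4 had 0 reads in Dx-IONP, 1 read in IC (0.0197 CPM) and 16 reads in Control (0.172 CPM). Of the meprins, which are proteases of gut and kidney surfaces, mep1a.1 had 0.590 CPM in Dx-IONP, 0.531 CPM in IC and 0.827 CPM in Control, and 1 row of MEP1B had 0 reads throughout. The other row of MEP1B had 0.0421 CPM in Dx-IONP, 0.118 CPM in IC and 0.140 CPM in Control.

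The label of the 3 genes was checked against other genes of the hatching gland. Of 10 listed entries 7 had a row and all 7 were past the filter. Of the 3 entries without a row of their own, he2 is a RefSeq name of he1.3. In Dx-IONP against Control 3 of the 7 (he1.3, ctslb and XBP1) were higher, beside 20.9% of all genes, and none lower. The median log2 fold was 0.66. Of the same 7, 3 (ctslb, XBP1 and foxa3) were higher in IC than in Control, beside 14.2% of all genes, and none lower. Their median was 0.07. In Dx-IONP against IC 3 (he1.3, ctslb and klf17) were higher, beside 24.0% of all genes, and 1, foxa3, was lower. The median there was 0.73. The 2 members on this list are in these counts because they were chosen for their values, so only the other 5 genes bear on the label. Of these 5, XBP1 alone was counted in Dx-IONP against Control, and XBP1 and foxa3 in IC against Control. The summed level of the 7 genes was 1033 CPM in Dx-IONP, 1246 CPM in IC and 560 CPM in Control, most of it from XBP1.

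These 5 genes differed in their order: klf17 and CD63 were highest in Dx-IONP, as he1.3 was, but less than 2-fold above Control, PRDM1 was lowest in Dx-IONP, and XBP1 and foxa3 were highest in IC. CD63, PRDM1, XBP1 and foxa3 are also used in other tissues of the larva. The transcription factor klf17, needed for the gland to form, had 10.6 CPM in Dx-IONP, 3.70 CPM in IC and 6.66 CPM in Control, a log2 fold of 0.66 (0.49 to 0.84) against Control. CD63, a membrane protein of secretory vesicles and lysosomes, had 195 CPM in Dx-IONP, 118 CPM in IC and 141 CPM in Control. The repressor PRDM1 had 22.9 CPM in Dx-IONP, 42.1 CPM in IC and 40.2 CPM in Control, a log2 fold of -0.81 (-0.91 to -0.72) against Control. XBP1, a regulator of the secretory apparatus and of the unfolded protein response, had 752 CPM in Dx-IONP, 1059 CPM in IC and 361 CPM in Control, a log2 fold of 1.06 for Dx-IONP and of 1.55 for IC against Control. The factor foxa3 had 11.1 CPM in Dx-IONP, 22.7 CPM in IC and 11.1 CPM in Control. With total reads XBP1 in Dx-IONP against Control was at 0.69, foxa3 in IC against Control at 0.96 and PRDM1 in Dx-IONP against Control at -1.18, which made the counts 2 higher and 1 lower for Dx-IONP and 2 higher for IC.

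**Figure D5:**
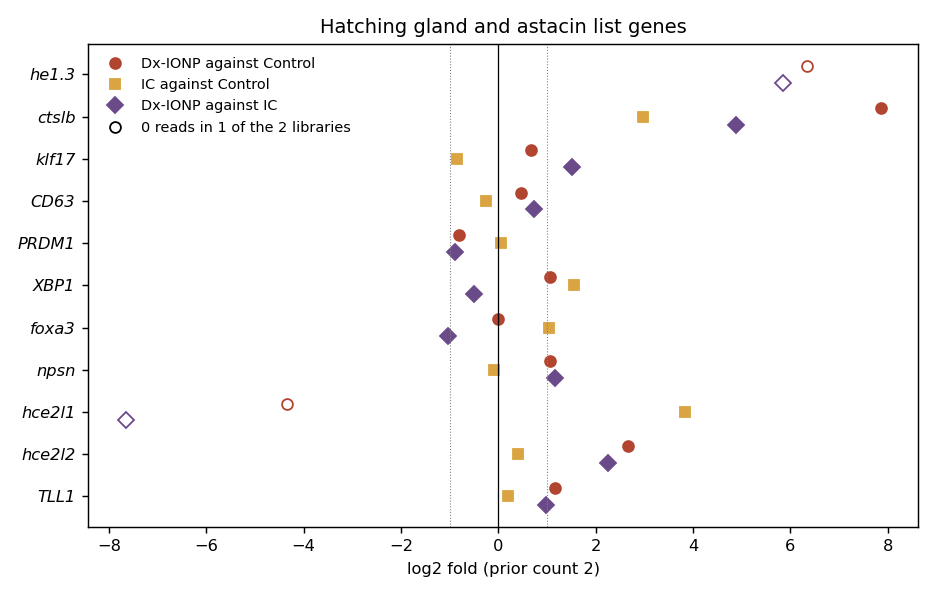
Log2 folds (prior count 2) of the 11 hatching gland and astacin list genes past the filter, for Dx-IONP against Control (circles), IC against Control (squares) and Dx-IONP against IC (diamonds), with dotted lines at 2-fold and open symbols where 1 of the libraries had 0 reads. The open symbols of he1.3 lie to the right and those of hce2l1 to the left, and klf17, CD63, PRDM1 and foxa3 lie within 2-fold for Dx-IONP against Control.

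The genes most like each protease over the 3 libraries were sought among 11497 genes with a symbol and at least 10 CPM, by the distance between log2(CPM + 1) values centred on their mean. Such likeness over 3 libraries is a description and carries no test. Nearest to ctslb was si:dkey-269i1.4 of the same run (distance 0.00896), followed by adpgk2 (0.145), gvin1l2 (0.152), zgc:174153 of the same run (0.309) and si:ch211-57n23.4 (0.349). Nearest to ctslb.4 were zgc:112964 (0.343), zgc:174855 of the same run (0.836), PIEZO1 (0.880), HEATR5A (0.930) and ENSDARG00000068947 (0.964). Nearest to he1.3 were srr (0.0201), map3k22 (0.0293), samd8 (0.0426), FKBP14 (0.0433) and GCLM (0.0501), all with reads in the 3 libraries; the pseudocount of 1 shrinks the differences of a gene as low as he1.3.

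Genes of other cell types and of stage moved with the same libraries. Of the surface epidermis, the layer in which the gland cells come to lie over the yolk, 12 listed genes passed the filter. In Dx-IONP against Control 8 of the 12 were higher, beside 20.9% of all genes, and 1 was lower. Their median log2 fold was 1.95, and their summed level was 112320 CPM in Dx-IONP, 33569 CPM in IC and 24014 CPM in Control. The keratin gene krt4 made up most of that sum, with 97330 CPM in Dx-IONP, 25649 CPM in IC and 14904 CPM in Control. The gene lower in Dx-IONP was krt5, with 2171 CPM in Dx-IONP, 2179 CPM in IC and 5095.5 CPM in Control. Another 3 of the 12 were neither higher nor lower in Dx-IONP against Control. In IC against Control 1 of the 12, cyt1, was higher, beside 14.2% of all genes, and 1, krt5, was lower (median 0.32). In Dx-IONP against IC 7 were higher, beside 24.0% of all genes, and none lower (median 1.04). Of 16 neutrophil and macrophage rows, which cover the astacin npsn, 7 were higher in Dx-IONP than in Control and 1 was lower. The share of all genes higher was 20.9%. The median of these rows was 0.84, but with total reads 2 were higher and 2 lower. Their summed level was 335 CPM in Dx-IONP, 155 CPM in IC and 172 CPM in Control. In IC against Control 1 was higher, beside 14.2% of all genes, and 7, most of them MFAP4 rows, were lower (median -0.32). In Dx-IONP against IC 8 were higher, beside 24.0% of all genes, and 1 was lower (median 0.97). With total reads 4 were higher and 1 was lower in Dx-IONP than in IC. The list entry for MFAP4 matched 8 rows and that for MPEG1 matched 3, of which some were below the filter. Rows of similar copies can share reads, so these rows are not separate observations. The MFAP4 row ENSDARG00000038683, counted as higher in Dx-IONP against both other libraries, passed the filter through its Dx-IONP level alone. None of the rows of the epidermis list was at 0 in any library, and of the neutrophil and macrophage rows 1 was at 0 in IC. The part of these genes in the levels of the proteases was not tested.

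For stage, a list of genes that are ordinarily higher earlier in development and a list of genes that are ordinarily higher later were read in the same way. The median log2 fold of the 15 earlier genes past the filter was 1.342 in Dx-IONP against Control. Of them 9 were higher, beside 20.9% of all genes, and none lower. Among them hbbe3, an embryonic globin, had 728 CPM in Dx-IONP, 1.2 CPM in IC and 3.49 CPM in Control, and igf2bp1 had 1122 CPM in Dx-IONP, 770 CPM in IC and 319.8 CPM in Control. One LIN28A row (ENSDARG00000016999), for an RNA-binding protein of early embryos, had 18.2 CPM in Dx-IONP, 13.5 CPM in IC and 3.69 CPM in Control. The LIN28A row ENSDARG00000004328, counted as higher in Dx-IONP against both other libraries, passed the filter through its Dx-IONP level alone. It had 1.66 CPM in Dx-IONP, 0.275 CPM in IC and 0.247 CPM in Control. Between IC and Control 4 earlier genes were higher in IC, beside 14.2% of all genes, and 4 lower (median 0.14). The 4 lower ones were all globin genes. In Dx-IONP against IC 7 earlier genes were higher, beside 24.0% of all genes, and 1, HMGA2, was lower (median 0.67). HMGA2 was highest in IC, with 37.0 CPM in Dx-IONP, 99.9 CPM in IC and 21.8 CPM in Control. The summed level of the earlier genes was 11854 CPM in Dx-IONP, 5604 CPM in IC and 6743 CPM in Control, with no row at 0.

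Of 17 later genes past the filter 14 were lower in Dx-IONP than in Control, beside 4071 of all 16807 genes, and 2 higher. Their median log2 fold was -4.49. Some of the genes counted as lower than in Control, in Dx-IONP and in IC, passed the filter through their Control level alone. The cone opsin opn1mw1 was at 1.01 CPM in Dx-IONP, 229 CPM in IC and 476 CPM in Control, and the liver gene fabp10a at 0.590 CPM in Dx-IONP, 65.8 CPM in IC and 160 CPM in Control. With total reads 1 was higher and 15 were lower. Between IC and Control 10 later genes were lower in IC, beside 2534 of all 16807 genes, and 2 higher (median -1.28). In Dx-IONP against IC 11 were lower, beside 4451 of all 16807 genes, and 3 higher (median -2.83). The summed level of the later genes was 361 CPM in Dx-IONP, 650 CPM in IC and 1205 CPM in Control. The order of ctslb and ctslb.4, highest in Dx-IONP and lowest in Control, was thus the reverse of the order of this sum. The summed level of the earlier genes was lowest in IC, whereas by the medians of the single genes IC lay between Dx-IONP and Control. Whether the pools differed in stage, in hatching or in the loss of gland cells was not tested, and with 1 pool for each condition effects of exposure, of the pool and of the library cannot be told apart.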

How the data were processed

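RNA from pools of 20 zebrafish larvae per condition was sequenced as 1 poly(A) library for each of Dx-IONP, IC and Control. The deposited table holds estimated counts per gene and lane, unnormalized and written by the authors as whole numbers. The submitters' processing notes name Salmon 1.6.0, DESeq2 1.34.0, R 4.1.2, FastQC and the build GRCz11, but neither the use of strand nor any filter on rows. Salmon can divide the reads of similar copies between rows. The 12 columns are 3 libraries on 4 lanes each, and lanes (11847840 to 21329490 reads) were summed, which leaves 1 library per condition and no test between conditions.

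TMM factors (edgeR 4.0.16, R 4.3.3) came from all rows with reads. Genes with at least 1 CPM in 1 library were kept (16807). Log2 folds used a prior count of 2, in proportion to library size, and ratios and intervals used none. Intervals of ratios are exact 95% Clopper-Pearson intervals on the conditional binomial, and those of levels are exact Poisson intervals; all cover counting error only. A fold against 0 reads was set against 3 counts in that library. Other settings were total reads, DESeq2 1.42.0 size factors, a prior count of 0.5, no filter, 10 CPM, each lane left out, and sums of copies. Python 3.11.15, numpy 2.4.6, pandas 2.3.3 and scipy 1.17.1 were used, and the counting of folds was tested on simulated data.

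The 3 genes and the 7 gene lists (119 entries, 91 matched) were chosen with earlier results of these data known. All hatching gland and astacin rows are named; of other lists, genes past the fold rule by size of the Dx-IONP against Control fold, at most 6, from which the text prints a part. Marker names outside the symbols were matched through RefSeq synonyms. The cathepsin L run, si:dkey-239j18.3, htr7, si:ch211-246m6.4 and the separate levels of ctsl.1 and krt5 were chosen after their values or those of their neighbours were seen. Some genes of the later stage list are counted but not reported here by name.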

Additional observations from a re-analysis of the deposited data

Results flagged for a closer look

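In Dx-IONP, lane 3 of ctslb stood apart from the other lanes of the library: its level was 34.7 CPM, whereas the others were at 39.8, 40.6 and 40.7 CPM. The gap took up 0.846 of the whole range, above Dixon's 95% critical value for 4 values. Such a gap turns up by chance in about 1 in 20 groups, and 28 groups of lanes were looked at.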

How the results depend on the processing

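No paired analysis was possible because each condition has 1 library, and a lane number shared between conditions names a sequencing run, not a pair of pools. The direction of every fold of ctslb and ctslb.4 was the same under total reads, DESeq2 size factors, both prior counts, each filter and each lane left out. For he1.3 the direction could not change under these settings, since every lane of IC and of Control had 0 reads. That it stayed the same under total reads, DESeq2 size factors, no filter and each lane left out is therefore no check of he1.3. Its folds against a floor of 3 reads use no prior count. With ctslb and ctslb.4 summed, the log2 fold in their place was 6.33 in Dx-IONP against Control and 2.78 in Dx-IONP against IC, and with the 8 cathepsin L rows summed, an alternative chosen after seeing the data, it was 6.54 and 2.97. With total reads ctslb.4 was at 5.55 in Dx-IONP against Control and at 2.05 in Dx-IONP against IC. Leaving out lanes moved ctslb between 4.52 and 5.77 in Dx-IONP against IC and between 1.64 and 3.53 in IC against Control, the lowest without lane 4. With at least 10 CPM in 1 library 4947 genes were past the fold rule in Dx-IONP against Control, because fewer genes were tested. That filter also leaves out he1.3, which is under 10 CPM in every library. Summing rows named he1. changed nothing, since 1 row carries such a name. The counts of the astacin and hatching gland lists moved by more than 1.5 times in 6 of the combinations of list, comparison and setting run. Few reads limit he1.3, with 109 in Dx-IONP, ctslb in Control, with 13, and si:dkey-239j18.2 in Control, with 3.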
